A study of Mus musculus with 21 samples.

Results

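Stat3, Stat4, Stat5a, Stat5b and Stat6 encode STAT transcription factors, and Socs1, Socs3 and Cish encode SOCS-family inhibitors of the same cytokine signal. These 8 genes were selected by name from the 12994 genes of the deposited spleen table. CD4+ and CD8+ T cells had been taken from spleens of C57BL6/J females, as CD45+ CD11b- CD3+ cells carrying CD4 or CD8, and their RNA was sequenced. Mice of the enriched environment (EE) entered it at 4 weeks of age and stayed for 4 weeks. The others lived in a standard environment (SE), with the same starting age of 4 weeks and period of 4 weeks. The labels name no genotype or drug. EE cages measured 9120 cm2, held 12 to 15 mice and contained running wheels, houses, tunnels and toys, whereas SE cages measured 666 cm2 and held 5 to 6 mice without objects. There were 6 samples of CD4+ EE, 5 of CD4+ SE, 6 of CD8+ EE and 4 of CD8+ SE. Of the 12 mice, 9 gave a sample of both populations, so that CD4+ and CD8+ samples with the same environment and number are from the same mouse, while EE and SE mice with the same number are different animals. The labels place the analysed animals of each environment in the same cage, so cage and environment cannot be told apart.

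Most cytokines that instruct T cells bind receptor chains that carry JAK kinases. The JAKs phosphorylate a STAT protein, which pairs with another, enters the nucleus and switches on genes, among them the SOCS genes, whose products dampen the receptor that started the signal. In T cells STAT4 acts downstream of interleukin-12, STAT6 of interleukin-4, STAT3 of interleukin-6 and related cytokines, and STAT5A and STAT5B of interleukin-2, interleukin-7 and interleukin-15. The messenger RNA level measured here is not a measure of STAT phosphorylation.

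Each cDNA molecule carried a random tag, a unique molecular identifier, so that amplified copies of a molecule were counted once. The deposited value of a gene is its number of molecules divided by the size factor of the sample, called the normalized count here. Samples held 145546 to 183941 molecules in CD4+ EE, 157556 to 190885 in CD4+ SE, 179696 to 221454 in CD8+ EE and 179008 to 203322 in CD8+ SE. The 8 genes together took 72 to 119 molecules of a sample, or 4.135 to 6.72 per 10000 molecules. The median of this share was 5.68 per 10000 in CD4+ EE, 6.19 in CD4+ SE, 4.86 in CD8+ EE and 5.47 in CD8+ SE. Over the 21 samples Stat3 had 423 molecules, Stat5b and Stat6 364 each, Stat4 264, Socs1 253, Socs3 197, Stat5a 151 and Cish 42. At such numbers counting alone gives a mean sample a relative error of 22.3% for Stat3, 37.3% for Stat5a and 70.7% for Cish. The floor and the intervals of shares given here cover counting error only. A count of up to 3 molecules was treated as low, and Cish was at or under this floor in 17 of 21 samples, Stat5a in 2 and the other 6 genes in 0.

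The variance between samples of the same group can be set against the variance that counting alone would give. This ratio was 1.01 for Socs3, 1.259 for Stat6, 1.27 for Stat4, 1.33 for Stat5a, 1.38 for Cish, 1.59 for Stat3, 1.83 for Socs1 and 1.91 for Stat5b. For 3944 genes whose means lay between 5 and 25, its median was 1.57 and its quartiles were 1.22 and 1.99. Of the 7 family genes in that range of means, 6 lay between these quartiles, and Socs3 lay below them, close to the spread that counting alone would give. Cish, with a mean of 2.02, was under that range.

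On GRCm38, Stat5b (ENSMUSG00000020919, minus strand, 100780731 to 100850724), Stat5a (ENSMUSG00000004043, plus strand, 100859351 to 100885169) and Stat3 (ENSMUSG00000004040, minus strand, 100885098 to 100939540) are neighbours on chromosome 11. Stat5b and Stat5a lie 8626 bases apart, and the 3′ ends of Stat5a and Stat3 overlap by 72 bases on opposite strands. Socs3 (ENSMUSG00000053113, minus strand, 117966079 to 117970047) is on chromosome 11 as well. Stat4 (ENSMUSG00000062939) lies on chromosome 1 from 51987148 to 52107189 and Stat6 (ENSMUSG00000002147) on chromosome 10 from 127642986 to 127660957, both on the plus strand. Socs1 (ENSMUSG00000038037) lies on the minus strand of chromosome 16 from 10782240 to 10785536 and Cish (ENSMUSG00000032578) on the plus strand of chromosome 9 from 107296026 to 107302784. Stretches of 50 bases that also occur in another annotated gene made up 11.0% of those of Stat5b, all shared with Stat5a, and 8.52% of those of Stat5a, most of them shared with Stat5b. The share was 21.7% for Stat4, all with the gene model Gm28177, 9.35% for Cish, mostly with Gm17041, 0.555% for Stat3, and 0 for Stat6, Socs1 and Socs3. How reads from these stretches were assigned was not tested.

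The labels were checked against marker genes. Cd4, the CD4 co-receptor gene, had a normalized count of 42.7 to 85.8 in the CD4+ samples and 0 to 0.966 in the CD8+ samples. Cd8a, a chain of the CD8 co-receptor, had 0 to 3.09 in the CD4+ samples and 72.5 to 117 in the CD8+ samples. The populations did not overlap in either gene. The 7 T-cell genes searched summed to medians of 539 in CD4+ EE, 489 in CD4+ SE, 792 in CD8+ EE and 760 in CD8+ SE, with Cd3d highest in the CD4+ groups and Cd8b1 in the CD8+ groups. Of 8 myeloid genes 3 were in the table, and their summed medians were 1.07 in CD4+ EE, 0 in CD4+ SE, 0 in CD8+ EE and 4.12 in CD8+ SE. Of 4 natural killer genes only Klrb1c was in the table, with means of 0.484 and 0.143 in CD4+ EE and CD8+ EE and of 0 in both SE groups. The 5 erythroid genes summed to medians of 4.04, 3.66, 2.36 and 6.47 in the groups in the same order, with Hba-a1 the most abundant, and the sum reached 581 in CD8+ EE replicate 6 and 1033 in CD8+ SE replicate 3. Their part in the results on the family was not tested.

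The populations were compared first, since the STAT that a T cell relies on differs with its function. On log2(normalized count + 1), a scale that makes changes of low genes look smaller than they are, limma gave 0 of the 8 genes past an adjusted p of 0.05 when CD4+ samples were set against CD8+ samples, where 349 of all 7938 genes with a mean above 2 passed, or 4.4%. At an unadjusted p under 0.05 there was 1 of 8 members and 1176 of all genes (14.8%). On the molecules, edgeR and DESeq2 also gave 0 of 8 past the adjusted threshold, where 371 and 324 of all 7938 genes passed. Of the 8 fold changes 5 were positive and 3 negative, and their median was 0.051 on the log2 scale, against -0.0073 over all genes. The CD4+ and CD8+ samples overlapped in all 8 genes, and in none did neighbouring group means differ by more than the sum of their standard deviations. No such count was made over all genes, so both describe the 8 genes only. In bulk samples such as these, fewer cells of a type and less RNA per cell cannot be told apart.

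Cish encodes CIS, a SOCS-family inhibitor that is induced by STAT5 and restrains interleukin-2 and T-cell receptor signalling. It had the fewest molecules of the family and the largest log2 difference between the populations. In CD4+ EE samples its normalized count ran from 0 to 6.44 with a median of 4.88, and in the SE samples it was 3.09, 1.83, 0.914, 2.85 and 1.13 in replicates 1, 3, 4, 5 and 6. In CD8+ EE samples it was 0 in 4 of 6, 2.91 in replicate 4 and 0.859 in replicate 6, and in SE it was 1.71, 0.931, 0 and 1.92 in replicates 1, 2, 3 and 6. The 11 CD4+ samples thus held 33 molecules and the 10 CD8+ samples 9, and no CD8+ sample had more than 3. Of the CD4+ samples 5 exceeded every CD8+ sample and 10 exceeded the CD8+ mean, the exception being EE replicate 6, which had 0. Within the 9 mice, the CD4+ sample was higher in 7, which were 5 of 6 EE mice and 2 of 3 SE mice. The means were 3.10 ± 2.11 (SD, n = 11) and 0.834 ± 1.04 (SD, n = 10), the CD8+ samples all at or under the floor. The log2 fold change was 1.06 (standard error 0.39, 95% interval 0.28 to 1.85), and its adjusted p of 0.129 in limma missed the threshold. CD4+ EE, at 4.05, was the only group whose own mean exceeded the filter of 2, so Cish entered the fit through samples where it was high. With the CD8+ samples at or under the floor, the fold change is a description, and no difference is read from it.

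The adjusted p of Cish lay between 0.0907 and 0.156 over the alternatives in which it could be fitted, apart from leaving out single samples. It was 0.147 in edgeR, with a log2 fold change of 1.61, and 0.156 in DESeq2, with 1.76. Its overall mean of 2.02 was just above the filter, so it was fitted in 13 of the 21 fits that each left out a sample. There the log2 fold changes ran from 0.90 to 1.27 and adjusted p from 0.0380 to 0.299 in limma. It fell under the filter without CD4+ EE replicates 1, 2, 3, 4 or 5, CD4+ SE replicates 1 or 5 or CD8+ EE replicate 4. The filter thus removed the fits without a high CD4+ sample, and the range does not show how low the value would be in them. Without CD4+ EE replicate 6, the sample at 0, the log2 fold change was 1.27 and the adjusted p in limma 0.0380, under the threshold. Leaving out that sample raises the group through which Cish passed the filter, so no difference is read from this fit. Among EE samples alone the log2 fold change was 1.61 with an adjusted p of 0.0997 in limma, and among SE samples alone the mean fell under the filter.

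Other cell types in the sorted samples are described by the summed normalized counts of their marker genes. The 9 B-cell genes had sums of 235 to 341, with a median of 289, in CD4+ EE samples and of 41.2, 495, 288, 212 and 358 in CD4+ SE replicates 1, 3, 4, 5 and 6. In CD8+ samples the sum was 35.0 to 115 in EE (median 46.8), and 42.0, 45.6, 48.6 and 41.3 in SE. CD4+ samples other than SE replicate 1 therefore lay above every CD8+ sample, and 6 of 8 B-cell genes tested were higher in CD4+ samples in limma. Cd74, an antigen-presentation gene, was the most abundant in the CD4+ groups (means 119 in EE and 98.9 in SE) and Ighm in the CD8+ groups (37.7 and 37.9). Ms4a1 was at 0 in both CD8+ groups and Cd79a in CD8+ SE.

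The 4 regulatory T-cell genes, led by Ikzf2, summed to medians of 21.1 in CD4+ EE, 16.9 in CD4+ SE, 4.04 in CD8+ EE and 3.21 in CD8+ SE. Of the 2 tested, 1 was higher in CD4+ samples in limma, and it was not Ikzf2, whose adjusted p was 0.0661. Il2ra was at 0 in both CD8+ groups and Foxp3 in CD8+ SE. The 5 genes of antigen-experienced T cells, led by Ccl5, summed to medians of 183, 63.1, 104 and 29.3 in the same order, and 3 of 5 were higher in CD4+ samples in limma. Ccl5 itself was not among the 3, with means of 49.4 in CD4+ and 63.8 in CD8+ samples. The part of these cell types in the level of Cish was not tested.

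Stat5a and Stat5b encode the closely related STAT5 proteins, the route by which interleukin-2 and interleukin-7 reach the nucleus. In CD4+ EE samples Stat5b ran from 13.9 to 24.7, with a median of 19.9, and it was 11.3, 11.9, 12.8, 26.6 and 37.2 in CD4+ SE replicates 1, 3, 4, 5 and 6. In CD8+ samples it ran from 9.49 to 15.5 in EE (median 13.8) and was 13.7, 16.8, 14.1 and 15.4 in SE. The CD8+ samples formed a narrow band, and 6 of 11 CD4+ samples lay above all of it. In EE the CD4+ sample was the higher in 6 of 6 mice, and in SE in 1 of 3. The log2 fold change was 0.37 (95% interval -0.015 to 0.75, adjusted p = 0.362 in limma), from means of 19.5 ± 7.81 (SD, n = 11) and 13.9 ± 2.03 (SD, n = 10). With each sample left out in turn it stayed between 0.24 and 0.44, lowest without CD4+ SE replicate 6.

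Stat5a, which also overlapped between the populations, had means of 8.54 ± 3.44 in CD4+ EE, 6.01 ± 3.19 in CD4+ SE, 6.07 ± 2.56 in CD8+ EE and 7.27 ± 2.26 in CD8+ SE. Its log2 fold change between the populations was 0.037 (95% interval -0.52 to 0.59). Stat5a made up 49 of the 161 molecules of the pair in CD4+ EE, or 30.4% (Wilson 95% interval 23.9% to 37.9%). The share was 23.3% in CD4+ SE (30 of 129, 16.8% to 31.3%), 31.5% in CD8+ EE (40 of 127, 24.1% to 40.0%) and 32.7% in CD8+ SE (32 of 98, 24.2% to 42.4%). The 4 intervals overlapped, and single samples ran from 12.5% to 45.8%.

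Stat3, which helps to form interleukin-17-producing and follicular helper T cells, ran from 13.9 to 30.2 in CD4+ EE (median 21.3) and from 10.2 to 22.3 in CD8+ EE (median 16.5). In SE it was 15.4, 22.9, 15.5, 19.0 and 27.0 in the CD4+ samples and 24.8, 18.6, 10.6 and 21.1 in the CD8+ samples. The samples overlapped throughout, with the CD4+ sample the higher in 6 of 9 mice. Stat4, needed for type 1 helper T cells, and Stat6, needed for type 2 helper T cells, had the opposite sign, with the CD4+ sample the higher in 3 of 9 mice for each. Stat4 had means of 10.3 ± 3.72 in CD4+ EE, 12.0 ± 3.75 in CD4+ SE, 13.4 ± 2.90 in CD8+ EE and 12.3 ± 4.94 in CD8+ SE. Stat6 had means of 16.3 ± 3.07, 14.0 ± 6.90, 17.8 ± 3.54 and 17.8 ± 3.05 in the same order. The log2 fold changes between CD4+ and CD8+ samples were 0.24 for Stat3 (95% interval -0.12 to 0.60), -0.20 for Stat4 (-0.62 to 0.21) and -0.29 for Stat6 (-0.67 to 0.095). None of these intervals reached 1 log2 unit in either direction. Single samples moved the sizes, with ranges over the fits that each left out a sample of 0.12 to 0.31 for Stat3, -0.28 to -0.088 for Stat4 and -0.39 to -0.16 for Stat6.

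Socs1 and Socs3 encode inhibitors that bind JAK kinases, SOCS1 mainly against interferon and common-chain cytokines and SOCS3 against the interleukin-6 receptor family. Socs1 had means of 12.4 ± 3.60 in CD8+ EE and 12.6 ± 4.271 in CD8+ SE. In CD4+ EE samples it ran from 5.36 to 20.1 (median 6.53), and in CD4+ SE it was 9.27, 12.8, 14.6, 9.50 and 19.1. In EE the CD4+ sample was the higher in 1 of 6 mice, and in SE in 2 of 3. Socs3 had means of 10.6 ± 3.53 in CD4+ EE, 8.02 ± 3.95 in CD4+ SE, 9.27 ± 1.91 in CD8+ EE and 7.54 ± 1.87 in CD8+ SE. The log2 fold changes between the populations were -0.24 for Socs1 (95% interval -0.69 to 0.22) and 0.066 for Socs3 (-0.41 to 0.54), and neither passed in limma (adjusted p = 0.703 and 0.941). Leaving out single samples, Socs1 ranged from -0.36 to -0.14.

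The order of the 4 group means differed from gene to gene. Both CD4+ groups stood above both CD8+ groups for Stat3, Stat5b and Cish, and below them for Stat4 and Stat6, whereas the populations interleaved for Stat5a, Socs1 and Socs3. The highest group mean was 1.28 times the lowest for Stat6 and 1.51 times for Stat5b, with the other genes but Cish between them. No such ratio is given for Cish, whose lowest group, CD8+ EE, held 0 to 3 molecules a sample.

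**Figure D1:**
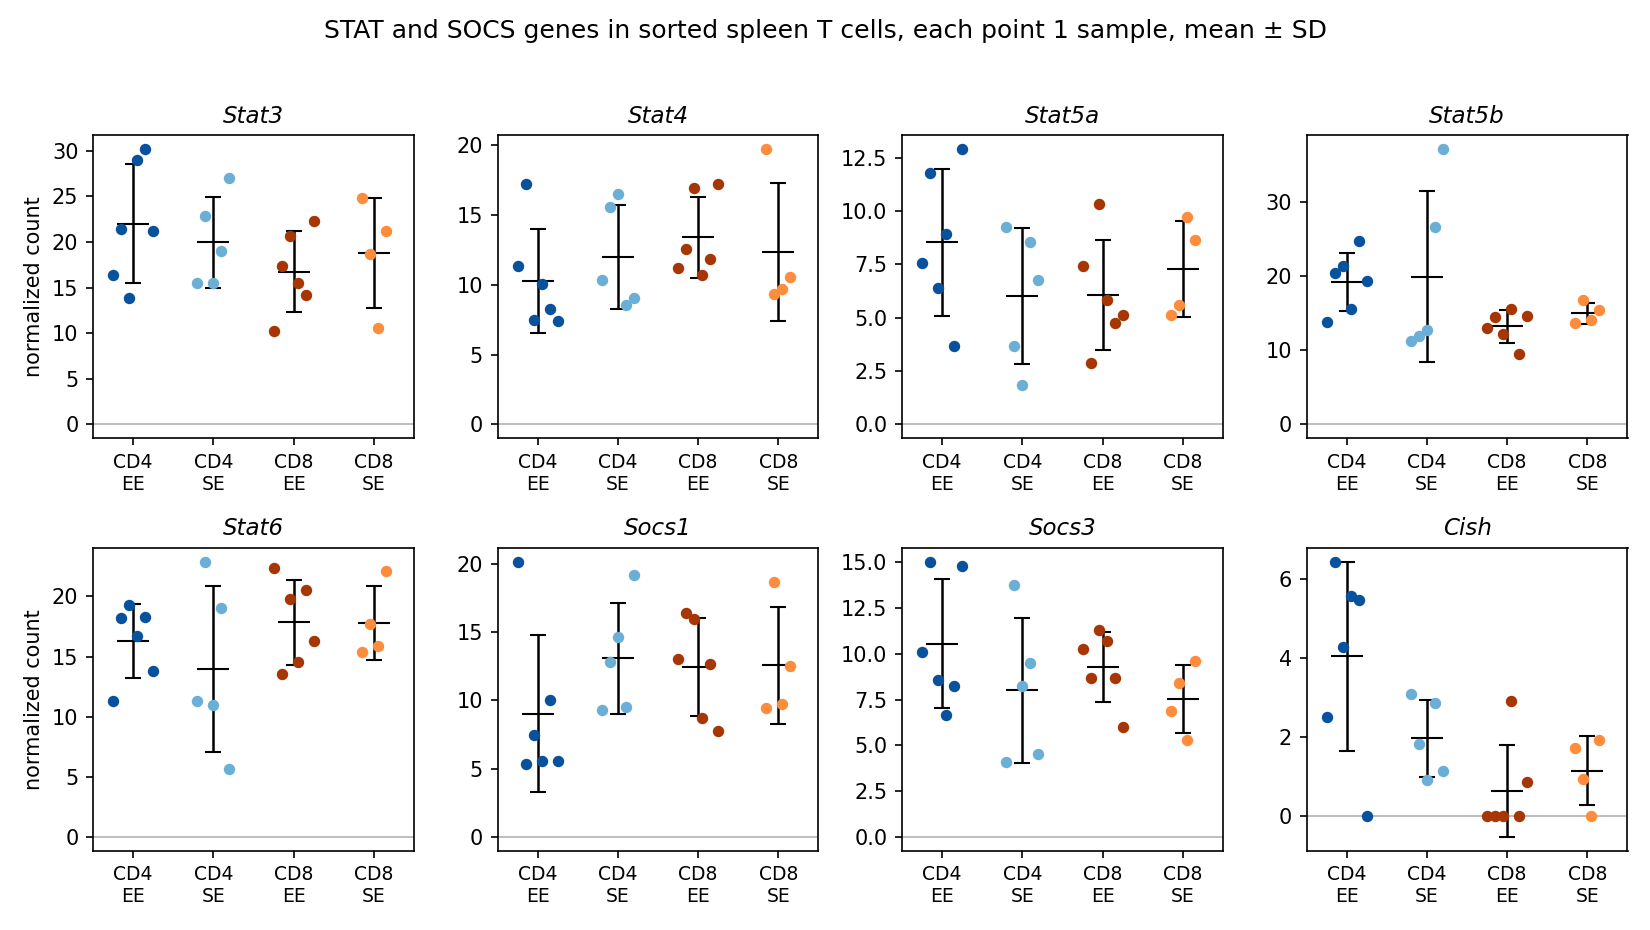
Normalized count of each STAT and SOCS gene in every sample of the 4 groups, with the mean and standard deviation as a bar and its whiskers. The groups overlap in all 8 genes, and Cish is at 0 in 4 of 6 CD8+ EE samples.

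The next question was whether housing moved the family in CD4+ T cells. In limma, 0 of 8 genes passed the adjusted threshold when EE was set against SE, where 1 of all 7939 genes passed, or 0.0126%. At an unadjusted p under 0.05 there were 0 of the 8 and 462 of all genes (5.82%). With edgeR and DESeq2 0 members passed as well, where 2 and 1 of all 7939 genes did. Of the 8 fold changes 6 were positive, with a median of 0.22 against 0.0012 over all genes. The sign of Stat5b, 1 of the 6, was negative in edgeR and DESeq2, and its EE mean was 0.963 times its SE mean. The EE and SE samples overlapped in each gene, a description of the 8 only, since no such count was made over all genes. The gene that passed was S100a6, on the list of antigen-experienced T cells, of which 3 of 5 had an unadjusted p under 0.05, and the list's summed median was 183 in EE and 63.1 in SE. In limma 0 genes passed with a pseudocount of 0.5, when means had to exceed 10, with all 21 samples in the fit or with the replicate block (439, 191, 570 and 449 at an unadjusted p under 0.05). Without the filter on means 3 genes passed, Ccl5 of the same list among them (log2 fold change 1.80, adjusted p = 0.0020), which is named after its values were seen. With the filter Ccl5 had the same fold change and an adjusted p of 0.629 in limma. Its normalized count ran from 3.21 to 171 in EE and from 0 to 45.8 in SE, which overlap. In limma 0 of 9 B-cell genes and 0 of 3 regulatory T-cell genes passed, with 1 and 0 at an unadjusted p under 0.05. The part of these markers in the values of the 8 genes was not tested.

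The inhibitors Socs1 and Cish had the lowest and the highest fold change on the scale of log2(normalized count + 1). For Socs1, apart from EE replicate 1, at 20.1, each EE sample lay below the SE mean of 13.1 ± 4.08 (SD, n = 5), and the EE mean was 9.03 ± 5.74 (SD, n = 6), a ratio of 0.691. The log2 fold change of Socs1 was -0.59 (standard error 0.33, 95% interval -1.26 to 0.075, adjusted p = 0.855 in limma). For Cish the log2 fold change was 0.59 (standard error 0.54, 95% interval -0.49 to 1.66, adjusted p = 0.918 in limma). Its EE samples held 0 to 6 molecules, its SE samples held 1 to 3, which is at or under the floor, and 4 of 6 EE samples lay above every SE sample. The means were 4.05 ± 2.402 (SD, n = 6) and 1.96 ± 0.984 (SD, n = 5). Only the EE mean exceeded the filter of 2, so Cish entered this fit through the EE samples, where it was high. With the SE samples at or under the floor, the values of Cish are a description, and no difference is read from them. Leaving out single samples, the log2 fold change of Cish ran from 0.42 to 1.00, highest without EE replicate 6, and that of Socs1 from -0.84, without EE replicate 1, to -0.45.

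For the other members in CD4+ cells, the log2 fold changes were 0.51 for Stat5a (95% interval -0.28 to 1.30), 0.42 for Socs3 (-0.27 to 1.11) and 0.32 for Stat6 (-0.26 to 0.90). They were -0.21 for Stat4 (-0.84 to 0.41), 0.11 for Stat3 (-0.38 to 0.61) and 0.085 for Stat5b (-0.46 to 0.63). The intervals of Stat3, Stat4, Stat5b and Stat6 lay within 1 log2 unit on either side of 0. Those of Stat5a, Socs3 and Cish held an increase of 1 log2 unit in EE, and that of Socs1 a decrease. With each sample left out in turn, Stat5a ranged from 0.22 to 0.70, Socs3 from 0.24 to 0.62, Stat6 from 0.063 to 0.53, Stat4 from -0.36 to -0.094 and Stat3 from 0.017 to 0.23, so the sizes of these values depended on single samples. In Stat5b the SE samples alone spanned 11.3 to 37.2, a wider range than the whole EE group.

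In CD8+ T cells 7 of the 8 genes were tested, since the mean of Cish fell under 2. In limma 0 of 7 had an adjusted p under 0.05 and 0 an unadjusted p under 0.05, where 0 of 7840 genes passed, or 0%, and 413 had an unadjusted p under 0.05 (5.27%). Over all genes edgeR gave 0 past the adjusted threshold and 386 at an unadjusted p under 0.05, and DESeq2 0 and 236. Of the 7 fold changes 2 were positive and 5 negative, and the median was -0.013 against -0.0078 over all genes. The log2 fold changes were 0.27 for Socs3 (95% interval -0.39 to 0.93), -0.26 for Stat5a (-1.03 to 0.50), -0.18 for Stat5b (-0.72 to 0.35) and 0.15 for Stat4 (-0.42 to 0.73). Stat3 had -0.14 (-0.67 to 0.39), Socs1 -0.013 (-0.61 to 0.58) and Stat6 -0.0037 (-0.50 to 0.49). When single samples were dropped, Socs3 ranged from 0.13 to 0.38, Stat5a from -0.42 to -0.11, Stat5b from -0.23 to -0.096 and Stat4 from 0.049 to 0.38. The interval of Stat5a held a decrease of 1 log2 unit in EE, and the other 6 lay within 1 log2 unit on either side of 0. Cish was at or under the floor in each CD8+ sample, so no fold change between EE and SE is given. Of the antigen-experienced list 0 of 4 tested passed in limma, with 1, Ccl5, at an unadjusted p under 0.05. The summed median was 104 in EE and 29.3 in SE. Ccl5 made up most of the sum, with means of 84.2 in EE and 33.2 in SE where the list had mean sums of 93.8 and 46.0. The median log2 fold change of the 4 tested was -0.047, so the sum does not describe the list as a whole. Without the filter on means, Ccl5 passed in limma here as well (log2 fold change 1.96, adjusted p = 3.8e-06). With the filter its fold change was the same and its adjusted p in limma was 0.407, so the call depended on the setting. Its normalized count ran from 13.2 to 152 in EE and from 1.86 to 98.5 in SE, which overlap.

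Whether the effect of housing differed between the populations was tested as an interaction, the EE minus SE difference in CD4+ cells less that in CD8+ cells. In limma 0 of 8 genes passed the adjusted threshold and 0 had an unadjusted p under 0.05, where 0 of 7938 genes passed, or 0%, with 393 at an unadjusted p under 0.05 (4.95%). Over all genes edgeR gave 0 and 365, and DESeq2 0 and 299. No value is given for Cish, since it rests on CD8+ samples at or under the floor. The differences on the log2 scale were 0.77 for Stat5a (95% interval -0.34 to 1.88) and -0.58 for Socs1 (-1.48 to 0.32), and those of the other 5 genes lay between -0.36 and 0.33. Leaving out single samples, they ranged from 0.48 to 0.96 for Stat5a, -0.83 to -0.44 for Socs1, 0.067 to 0.53 for Stat6 and -0.60 to -0.24 for Stat4. The median over the 8, Cish included, was 0.26 against 0.0049 over all genes. The intervals of all 8 included 0, and, Cish aside, those of 6 genes, all but Stat3, also held a difference of 1 log2 unit in at least 1 direction.

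**Figure D2:**
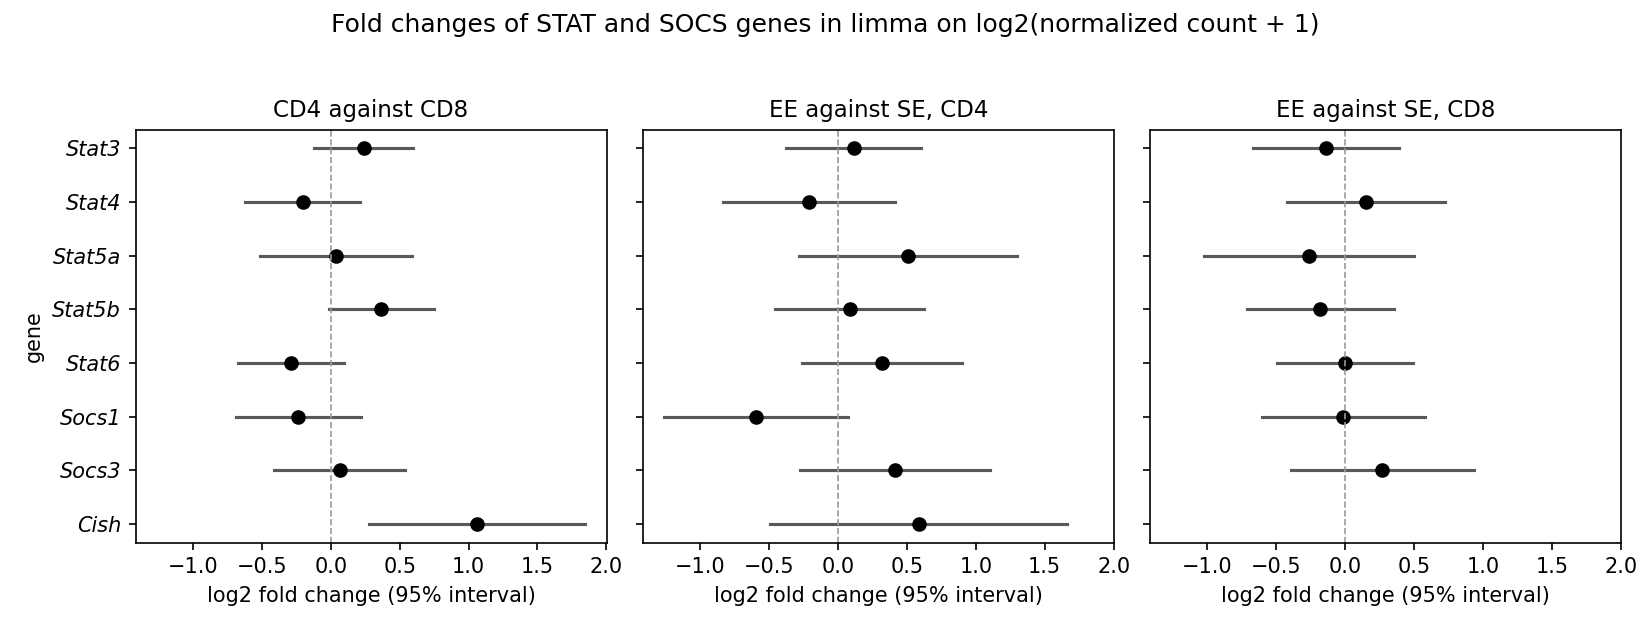
Log2 fold change of each gene in limma with its 95% interval, for CD4+ against CD8+ samples and for EE against SE in each population. Only the interval of Cish between the populations, 0.28 to 1.85, leaves out 0, and Cish is not drawn for EE against SE in CD8+ cells, where it was at or under 3 molecules in each sample. The interval between the populations rests on the same CD8+ samples, and Cish passed the filter on means only through CD4+ EE, so no difference is read from it.

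The rest of the pathway was read from 56 genes, listed as JAK kinases, other STAT and SOCS genes, cytokine receptor chains, PIAS proteins with phosphatases, and STAT target genes, of which 55 were in the table. Between the populations 2 of the 43 tested passed in limma, 1 higher and 1 lower in CD4+ samples, or 4.65%, near the 4.4% of all genes. The median of their log2 fold changes was 0.016. These were 1 of 14 receptor chains and 1 of 13 target genes, and no gene of the other lists passed. At an unadjusted p under 0.05 there were 12 of the 43, 7 of them among the 14 receptor chains, against 1176 of all 7938 genes (14.8%). The count past the adjusted threshold was 2 in edgeR (371 of all 7938 genes) and in DESeq2 (324). It was 3 with the mouse as a replicate block (323 of all 7949 genes) and 1 with SE samples only (105 of 7961). The block added Il2rb, a chain of the interleukin-2 receptor, lower in CD4+ samples and named after its values were seen.

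The receptor chain was Il6ra, which binds interleukin-6 upstream of STAT3. Its normalized count ran from 16.0 to 32.9 in CD4+ samples (median 22.9) and from 9.45 to 16.9 in CD8+ samples (median 13.8), so that the populations met only at their edges. The log2 fold change was 0.75 (standard error 0.17, 95% interval 0.41 to 1.09, adjusted p = 0.00197 in limma). The target gene was Pim2, a survival kinase induced by STAT5 and other cytokine signals. It ran from 7.32 to 24.9 in CD4+ samples (median 12.9) and from 18.0 to 39.4 in CD8+ samples (median 29.7), and the highest CD4+ samples overlapped the lowest CD8+ samples. The log2 fold change was -1.01 (standard error 0.19, 95% interval -1.40 to -0.62, adjusted p = 0.000173 in limma). Pim2 was lower in the population in which Stat5b and Cish had the higher means. Neither Stat5b nor Cish passed between the populations in that fit, and no difference is read from Cish. A link of Pim2 with either gene was not tested. In the same comparison 6 of 8 B-cell, 1 of 2 regulatory T-cell and 3 of 5 antigen-experienced T-cell genes were higher in CD4+ samples in limma. The part of those cell types in the values of Il6ra and Pim2 was not tested.

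Some genes are named because they had the highest mean of their list. Jak1, the kinase shared by most of these receptors, had a mean of 84.2 over the 21 samples and a log2 fold change of -0.088 between the populations (95% interval -0.28 to 0.10). The phosphatase gene Ptprc had a mean of 155 and the cell-cycle gene Ccnd2 67.2, with log2 fold changes of 0.024 (-0.13 to 0.18) and 0.016 (-0.21 to 0.24). Socs7 led the other SOCS genes with a mean of only 2.24 and had a log2 fold change of 0.28 (-0.47 to 1.04). Between EE and SE, limma gave 0 of 41 pathway genes in CD4+ cells, with 2 at an unadjusted p under 0.05 (5.82% of all genes) and a median log2 fold change of 0.091. It gave 0 of 42 in CD8+ cells, with 4 at an unadjusted p under 0.05 (5.27% of all genes) and a median of 0.0037. For the interaction it gave 0 of 43, with 4 (4.95% of all genes) and a median of 0.050. In edgeR and DESeq2 these 3 counts were 0 as well.

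How the members varied together was read after the group means had been taken out. Over the 28 pairs of the 8 genes and 21 samples, Pearson's r of log2(normalized count + 1) ran from -0.415 for Stat4 with Stat5b to 0.533 for Stat6 with Socs3 (Spearman's rho -0.586 and 0.370), with 14 positive and 14 negative values and a median of 0.0041. Stat5a and Stat5b had 0.123, so the neighbouring genes showed little common variation at these molecule numbers. Samples share mice, libraries and depth, and these values are a description only. Without removing group means, the genes with a mean above 10 that were most like Stat3 over the 21 samples were AU020206 (r = 0.719) and Id2 (0.684). For Stat5b they were Wapl (0.737) and Icos (0.655), for Stat6 Bax (0.769) and Ap2m1 (0.762), and for Stat4 Nutf2 (0.702) and Nop56 (0.677). These are the highest values among 2726 genes.

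Many STAT dimers bind the palindrome TTCNNNGAA, so the promoters of the 8 genes were searched for it. The search used RefSeq windows of 300 bases on GRCm38.p6, from 250 bases before to 50 after each start. A search of either strand reads both. Motifs with a spacer of another length were not searched, so a promoter without a match can still hold those. The 8 genes matched 11 promoters, of which 2 held the motif, those of Cish and Socs3, against 2726 of all 32851 promoters (8.298%). The Cish promoter (chr9:107296409-107296708, plus strand) held 2 matches separated by 2 bases, of which the 5′ one begins at the annotated start, and 150 of all promoters (0.457%) held 2 or more. The Socs3 promoter (chr11:117969317-117969616, minus strand) held 1, which begins 154 bases before the start. Both are shown, with the matches in capitals, because Cish had the largest log2 difference between the populations and Socs3 is the other feedback inhibitor with a match. A match is a description of letters and not a binding site.
Cish: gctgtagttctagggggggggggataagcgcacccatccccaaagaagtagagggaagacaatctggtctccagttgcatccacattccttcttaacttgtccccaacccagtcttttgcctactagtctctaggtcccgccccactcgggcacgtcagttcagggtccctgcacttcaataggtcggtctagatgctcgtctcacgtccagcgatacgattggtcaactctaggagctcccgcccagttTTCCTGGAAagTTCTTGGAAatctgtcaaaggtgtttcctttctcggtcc
Socs3: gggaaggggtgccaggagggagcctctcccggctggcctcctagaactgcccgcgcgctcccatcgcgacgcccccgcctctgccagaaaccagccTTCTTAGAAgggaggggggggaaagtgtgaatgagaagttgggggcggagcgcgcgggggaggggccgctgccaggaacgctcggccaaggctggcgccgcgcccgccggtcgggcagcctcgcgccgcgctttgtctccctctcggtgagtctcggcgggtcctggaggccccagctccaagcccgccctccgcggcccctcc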

How the data were processed

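The authors deposited a normalized signal for 21 spleen samples. Per the study's methods, they trimmed reads with cutadapt, aligned them to mm10 with STAR 2.4.0a, counted tagged molecules per gene, filtered low-abundance genes and divided by DESeq2 size factors. Every deposited value was a whole multiple of the smallest in its sample (tolerance 0.01), which gave back the molecules.

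Groups came from the labels. Genes whose mean exceeded 2 were fitted with limma 3.58.1 in R 4.3.3 (trend, not robust) on log2(value + 1), with Benjamini-Hochberg adjustment over all genes fitted and a threshold of 0.05. The environments were compared within each population, and the populations and the interaction over 21 samples with 4 group means. Alternatives were a pseudocount of 0.5, no filter, a mean above 10, equal totals, edgeR 4.0.16, DESeq2 1.42.0, all samples in the fit, a replicate block, EE or SE samples only, and each sample left out. The fits were tested on simulated data.

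Named were the 8 members, the genes of the pathway lists past the threshold, the gene of each list with the highest mean, and the 2 genes most like each of 4 members. Outside this rule, further marker genes of the label and cell-type checks, Il2rb and the gene models that share sequence with members are named. Some genes that this rule covers are not reported here. The members and lists were chosen with earlier results of these data known. Positions are from GENCODE M21. Figures were drawn with Matplotlib 3.10.9 in Python 3.11.15, and other steps used pandas 2.3.3, SciPy 1.17.1 and NumPy 2.4.6.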

Additional observations from a re-analysis of the deposited data

Results flagged for a closer look

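Of 32 groups of samples, taken for 8 genes in 4 groups, 3 held a sample far from the others by Dixon's criterion. For normally distributed values chance gives about 1 in 20 groups, or 1.6 here. Low counts with several samples at 0, such as those of Cish, are not distributed so, and no excess is read from the 3. Stat4 was 19.7 in CD8+ SE replicate 1, from 23 molecules, against 9.31 to 10.6 in the other SE samples, from 10 to 11 molecules. Socs1 was 20.1 in CD4+ EE replicate 1, from 16 molecules, against 5.36 to 10.1 in the other EE samples, from 5 to 11 molecules. Cish was 2.91 in CD8+ EE replicate 4, from 3 molecules, against 0 to 0.859 in the others, from 0 to 1 molecule. No explanation was tested for these values.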

How the results depend on the processing

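Of 236 fold changes of members recomputed under the alternatives, 227 kept their sign and their side of the threshold and 9 changed sign. No member passed the adjusted threshold in any alternative other than leaving out a sample. Fewer genes or samples enter some settings by construction, and otherwise the cause was not tested.

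Between the populations, the 349 genes became 216 when means had to exceed 10 (99 higher and 117 lower), 227 with EE samples only and 105 with SE samples only. With SE samples only, Stat5a changed to -0.35, Socs1 to 0.055 and Socs3 to -0.0073. Between EE and SE in CD4+ cells the 1 gene became 0 with a pseudocount of 0.5 (439 at an unadjusted p under 0.05), 0 when means had to exceed 10 (191) and 0 with all 21 samples in the fit (570), 3 without a filter and 2 with edgeR. Stat5b changed to -0.0091 in edgeR and -0.027 in DESeq2. In CD8+ cells the 0 genes became 3 without a filter, and Stat6 changed to 0.026 in edgeR and 0.017 in DESeq2.

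The mouse pairs come from the labels. Deviations from the group means had a mean r of 0.014 over 9 pairs of samples from the same mouse, and of 0.0083 and 0.0052 over same-numbered EE and SE mice in CD4+ and CD8+ cells. With the mouse as a replicate block, 323 genes passed between the populations and 0 for the interaction (470 at an unadjusted p under 0.05). With animal numbers as the replicate block, 0 genes passed in CD4+ cells (449) and 3 in CD8+ cells, where Stat6 became 0.0057 and Socs1 0.073.

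With each sample left out in turn, 453 of 478 member values kept sign and side, 24 changed sign and 1, Cish between the populations without CD4+ EE replicate 6, passed. The genes between the populations numbered 300 to 362, and 0 to 1 members passed. Of the pathway lists 2 to 3 genes passed, with 3, a further receptor chain among them, without CD4+ EE replicate 3, CD8+ EE replicate 6 or CD4+ SE replicates 4 or 6. Between EE and SE, 0 to 3 genes passed in CD4+ cells, with 3 without EE replicate 1, 2 without EE replicate 3 and 0 without EE replicates 2, 4 or 5 or SE replicates 1 or 5. In CD8+ cells 0 to 3 passed, with 3 without SE replicate 6, 2 without SE replicate 1 and 1 without EE replicates 3 or 4. Fold changes that changed sign were Stat5a (-0.051 to 0.18, in 8 fits) and Socs3 (-0.037 to 0.15, in 2) between the populations. Cish there ranged from 0.90 to 1.27 in the 13 fits that the filter on means allowed, none of which left out a CD4+ sample above its overall mean. Between EE and SE they were Stat5b in CD4+ cells (-0.066 to 0.34, without SE replicates 1, 3 or 4), and in CD8+ cells Stat3 (-0.38 to 0.0085, without SE replicate 1), Stat6 (-0.070 to 0.10, in 4) and Socs1 (-0.12 to 0.18, in 4). In the interaction it was Socs3 (-0.030 to 0.35, in 2).

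Recomputing Il6ra and Pim2 was chosen after seeing the data. Both kept their sign in each alternative and passed in each but 1, Il6ra with SE samples only (0.72, adjusted p = 0.280 in limma). Over the fits that left out a sample, Il6ra ranged from 0.70 to 0.80 and Pim2 from -1.12 to -0.93.

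At 42 molecules over 21 samples, Cish could not be fitted with a mean above 10, with SE samples only or, under the filter on means, in CD8+ cells, and depth limits what can be said of it. Stat5a and Socs3 could not be fitted with a mean above 10 either.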
